A study of Homo sapiens with 6 samples.

Results

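PDIA4, DNAJB9, SEL1L, HSPA5 and HSP90B1 encode proteins that fold and inspect secretory proteins in the lumen of the endoplasmic reticulum. Members were the array probes whose only gene symbol in the platform annotation is one of these names. The rule uses symbols alone, but the genes were chosen with earlier results of these data known. Counts of members beside those of all probes are therefore descriptive. PDIA4, SEL1L and HSP90B1 had 1 probe each and DNAJB9 had 2, so 5 probes reported 4 of the 8987 genes that the arrays name. No probe in the annotation used here carries HSPA5 as its single symbol, and HSPA5 is not analysed here.

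The data came from the human cell line GM00156 of the Coriell repository, whose cell type the labels do not state. Each of 5 arrays compared mRNA of cells kept with emetine, at 100 µg/ml for 10 h, with mRNA of cells kept without it, and both cultures then received actinomycin D at 5 µg/ml. Harvests were taken at 0, 10 and 30 min and at 1 and 8 h. Emetine halts ribosomes on their mRNA and actinomycin D stops transcription. Emetine was present before the transcription block, so ratios at every harvest may also hold changes made before it. Means over the harvests do not tell these from changes after the block. A further array, called self-self, carried mRNA of emetine-treated cells of 0 min in both channels, and its label mentions no actinomycin D. Each harvest had 1 array of 1 cell line, and the labels do not say whether harvests came from separate cultures. The number of arrays therefore limits the precision of every value.

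Values are deposited log2 ratios between the 2 channels of an array, and the labels leave unstated which culture is the numerator. A negative ratio stands for less mRNA in emetine-treated than in untreated cells if the treated channel is on top, and for more if the untreated one is. Only the sides, negative and positive, are therefore given. The label of the 0 min array also conflicts with itself on whether untreated RNA was present, and values without that array are given below. Values listed in order of harvest run through 0, 10 and 30 min, then 1 and 8 h. The spread of ratios (robust SD) was 0.44, 0.91, 0.78, 0.53 and 0.87 in that order, against 0.12 on the self-self array. A ratio of a given size is thus farther out on the 0 min and 1 h arrays than on the others.

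As background, nascent secretory and membrane proteins enter the reticulum and are bound by the HSP70 chaperone HSPA5 (BiP) and the HSP90 chaperone HSP90B1 (GRP94). Disulfide isomerases such as PDIA4 (ERp72) form and rearrange their cysteine bonds, while J-domain proteins such as DNAJB9 (ERdj4) direct BiP to its clients. Proteins that fail to fold are passed to a membrane ubiquitin ligase, for which SEL1L is the adaptor, and are destroyed by the proteasome. When unfolded protein accumulates, the sensors ERN1 (IRE1), EIF2AK3 (PERK) and ATF6 raise transcription of these genes, a program called the unfolded protein response.

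That program is known to act on HSPA5 and HSP90B1 through the endoplasmic reticulum stress element, a CCAAT box followed at a fixed spacing by CCACG. The RefSeq windows from 250 bases before to 50 bases after the start of the 4 measured genes (GRCh38.p14) are shown. They differ in exact matches to this element, and a link to the ratios was not tested. They are written 5′ to 3′ along the gene, and capitals mark every CCAAT and CCACG word on either strand (ATTGG and CGTGG when reversed).
HSP90B1 (chr12:103930160-103930459, plus strand): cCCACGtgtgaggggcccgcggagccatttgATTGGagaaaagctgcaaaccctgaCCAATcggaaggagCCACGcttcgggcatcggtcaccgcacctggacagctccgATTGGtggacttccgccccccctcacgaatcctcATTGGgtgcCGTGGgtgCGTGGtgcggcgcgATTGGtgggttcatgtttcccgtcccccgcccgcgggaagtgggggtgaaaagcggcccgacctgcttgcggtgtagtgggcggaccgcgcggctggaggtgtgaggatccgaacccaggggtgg
DNAJB9 (chr7:108569624-108569923, plus strand): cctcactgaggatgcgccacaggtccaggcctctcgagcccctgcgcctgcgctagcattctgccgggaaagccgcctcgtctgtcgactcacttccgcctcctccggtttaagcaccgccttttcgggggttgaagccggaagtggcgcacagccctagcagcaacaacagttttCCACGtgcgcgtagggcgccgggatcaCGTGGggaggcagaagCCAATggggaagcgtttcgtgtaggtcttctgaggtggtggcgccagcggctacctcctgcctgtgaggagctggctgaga
PDIA4 (chr7:149028441-149028740, minus strand): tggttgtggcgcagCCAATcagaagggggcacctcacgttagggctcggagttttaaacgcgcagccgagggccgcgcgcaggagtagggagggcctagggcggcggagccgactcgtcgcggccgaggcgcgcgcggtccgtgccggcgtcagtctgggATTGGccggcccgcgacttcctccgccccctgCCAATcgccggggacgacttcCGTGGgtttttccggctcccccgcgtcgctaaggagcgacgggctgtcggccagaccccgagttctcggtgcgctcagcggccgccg
SEL1L (chr14:81533804-81534103, minus strand): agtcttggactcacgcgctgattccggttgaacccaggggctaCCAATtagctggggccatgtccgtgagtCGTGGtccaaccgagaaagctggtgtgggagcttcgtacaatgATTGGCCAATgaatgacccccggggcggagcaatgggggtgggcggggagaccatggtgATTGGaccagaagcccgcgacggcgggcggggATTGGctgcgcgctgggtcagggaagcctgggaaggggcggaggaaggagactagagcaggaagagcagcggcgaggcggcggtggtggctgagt

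The full element, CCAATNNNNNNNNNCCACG on either strand, was found in 27 of 35116 such windows (0.0769%). HSP90B1 held it at 2 places, at positions -194 and -89 from the gene start, the second on the reverse strand, and HSPA5 at 1. No match lay in the windows of DNAJB9, SEL1L or PDIA4, including a second PDIA4 window that RefSeq gives. A related element, ATTGGNCCACG, occurs in 0.0541% of windows and the core TGACGTG in 1.97%, and neither was found in any of the 4 genes. CCAAT words, present in 34.6% of all windows, numbered 5 for HSP90B1, 5 for SEL1L, 3 for the printed PDIA4 window and 1 for DNAJB9. CCACG words, present in 38.1%, numbered 4, 1, 1 and 2 in the same order, and those of the full elements are counted among them. Both CCACG words of DNAJB9 overlap a CACGTG box, a word found in 7.26% of windows. Only exact matches were counted, so a variant of an element would be missed. These matches describe letters in the windows and show no binding.

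Log ratios of all 4 measured genes were negative on all 5 harvest arrays. Averaged over the harvests, PDIA4 was at -1.90 ± 0.70, DNAJB9 at -1.85 ± 0.63, SEL1L at -1.32 ± 0.69 and HSP90B1 at -0.87 ± 0.61 (log2, SD over 5 harvests), which are ratios of 3.72, 3.62, 2.49 and 1.83 in size. RNA came from whole cultures, so a difference in the number of cells of a type and one in RNA per cell cannot be told apart. All 5 probes had negative means that passed an adjusted p of 0.05 in limma, where 26.3% of the 13151 probes tested were called negative. On self-self the 5 probes lay between -0.12 and 0.17.

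PDIA4, the disulfide isomerase, had log2 ratios of -0.85, -2.56, -2.06, -1.58 and -2.43 in order of harvest, against -0.096 on self-self. Its 0 min ratio was the smallest in size and its 10 min ratio the largest, a step of -1.71 between these arrays. The mean had an SE of 0.22 and a limma adjusted p of 0.000499, and 63 of the 13151 probes tested had a lower mean.

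DNAJB9, the J-domain cofactor of BiP, was measured by 2 probes annotated to the same transcript record. Probe 1 stood at -1.54, -2.34, -1.75, -1.49 and -2.74 in order of harvest, against -0.12 on self-self. Probe 2 stood at -1.44, -2.18, -1.32, -0.98 and -2.75, against -0.089. Both were most negative at 8 h and least negative at 1 h. Their means were -1.97 (SE 0.17, limma adjusted p = 0.000499) and -1.73 (SE 0.22, limma adjusted p = 0.000587). Probe 1 minus probe 2 was -0.097, -0.16, -0.43, -0.52 and 0.011 over the harvests. Among the 1342 to 1365 transcript records with exactly 2 probes, both measured on an array, the median difference in size was 0.22, 0.42, 0.39, 0.26 and 0.39. DNAJB9's probes were thus closer than the typical pair at 0 and 10 min and 8 h, and farther apart at 30 min and 1 h.

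SEL1L, the adaptor of the ligase that marks misfolded proteins, was at -0.38, -0.95, -1.63, -1.45 and -2.18 in order of harvest, against 0.017 on self-self. Its ratio was more negative at each later harvest except 1 h. The mean had an SE of 0.13 and a limma adjusted p of 0.000499.

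HSP90B1, the HSP90 chaperone of the lumen, was at -0.25, -1.07, -1.07, -0.28 and -1.67 in order of harvest, against 0.17 on self-self. It was nearest to 0 on the 0 min and 1 h arrays, the pair with the narrowest spread, and farthest at 8 h. Its mean had an SE of 0.18 and a limma adjusted p of 0.00385.

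These p-values rest on the spread of 5 harvests around a line over time. No harvest was repeated, so they do not measure the spread between repeat experiments. With the self-self array added to the fit as the level to compare with, none of the 5 probes passed, with limma adjusted p from 0.167 to 0.229 and differences from -1.04 to -1.86. In that fit 2 of 13091 probes passed. Without the 0 min array all 5 probes passed, and the 4 gene means ran from -2.16 to -1.02.

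**Figure D1:**
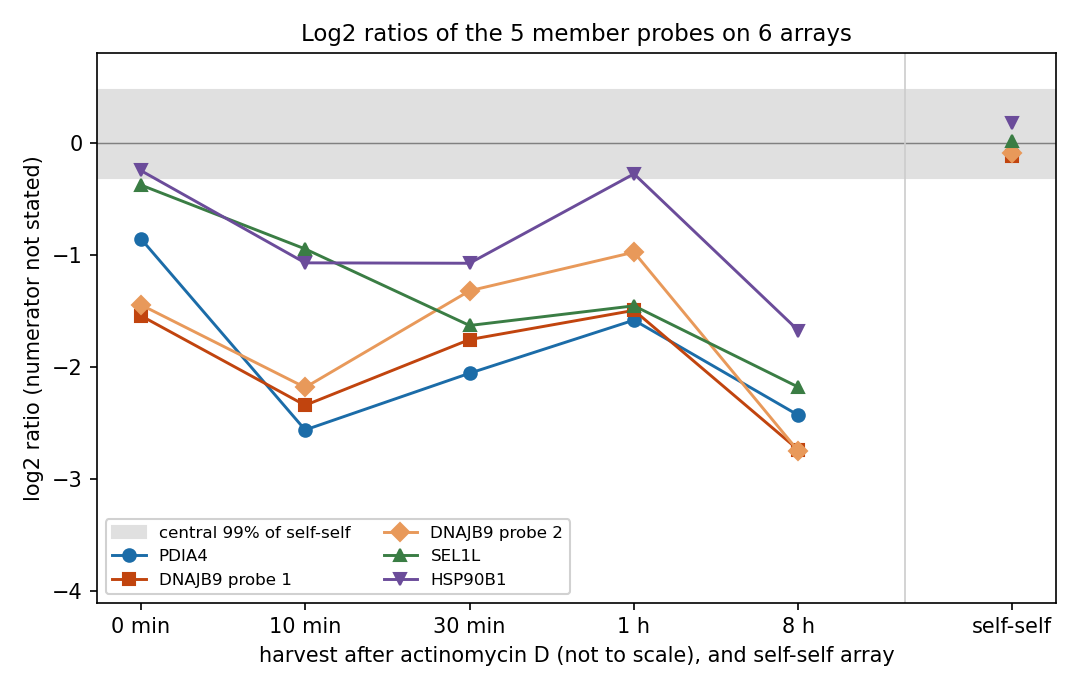
Deposited log2 ratios (y axis, numerator not stated) of the 5 probes of PDIA4, DNAJB9, SEL1L and HSP90B1 on the 5 harvest arrays and the self-self array (x axis, time not to scale), with 1 point per probe and array. The grey band is the central 99% of self-self, from -0.32 to 0.47, and only the HSP90B1 points at 0 min (-0.25) and 1 h (-0.28) fall inside it among the harvests.

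Each harvest was also set against the central 99% of the self-self array, which ran from -0.32 to 0.47, with no test since each harvest had 1 array. In order of harvest 4, 5, 5, 4 and 5 of the 5 member probes lay below it, where 20.8%, 34.1%, 29.9%, 26.4% and 29.8% of all 13091 probes did. HSP90B1 was the probe inside at 0 min and at 1 h. PDIA4, SEL1L and both DNAJB9 probes lay below the range on all 5 harvests, as did 13.1% of all probes. The count was 23 in 25. It was 24 with arrays centred on their median and 19 with a limit of 1 log2 unit in place of the range. With arrays scaled to equal spread it was 10, but that scaling also widens the self-self range itself.

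Ranks on each array do not depend on its spread. With 1 array per harvest, differences in rank between members or harvests were not tested. Probe 1 of DNAJB9 was among the lowest ratios already at 0 min, where 0.175% of measured probes lay lower, and 0.395% did so at 8 h. Probe 2 had 0.233%, 0.841%, 3.98%, 5.02% and 0.381% of probes below it in order of harvest. PDIA4 had 2.35% below it at 0 min and between 0.446% and 1.11% at the 4 later harvests. SEL1L stood at 17.6% at 0 min and 15.5% at 10 min, then at 1.93% at 30 min and at 0.900% at 8 h. HSP90B1 stood at 25.4%, 12.5%, 7.29%, 28.3% and 2.17% in order of harvest. At 0 min, on the array whose label conflicts with itself, both DNAJB9 probes were farther out than the other members. At 30 min and 1 h SEL1L was farther out than DNAJB9 probe 2 but not than probe 1 (1.43% and 1.30%). On self-self the 5 ranks lay between 14.5% and 89.4%.

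**Figure D2:**
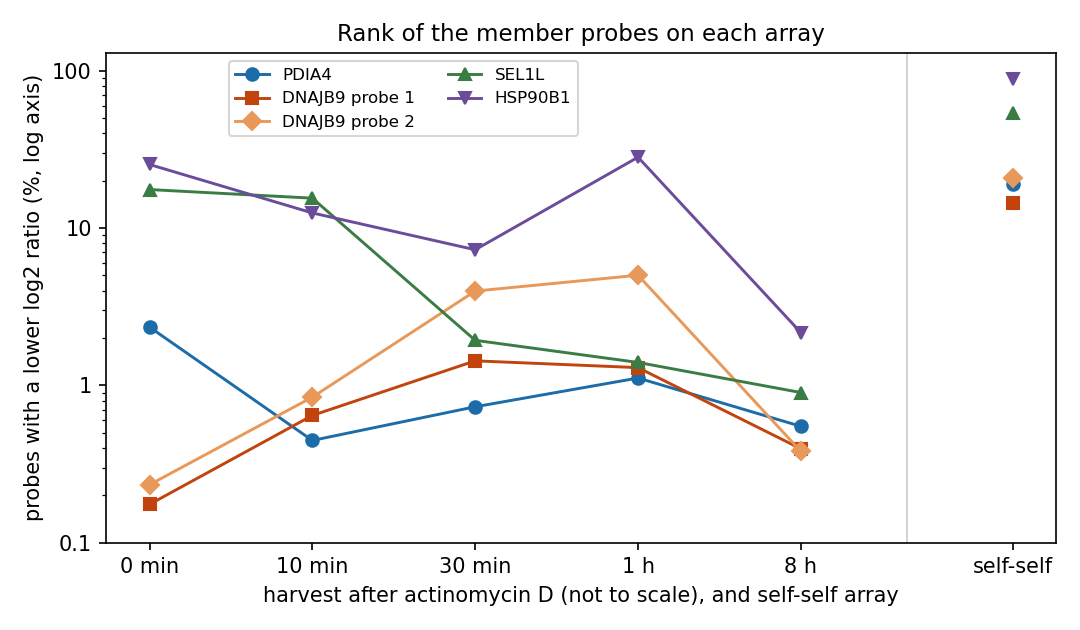
Share of measured probes with a lower log2 ratio (y axis, percent, log axis) for the 5 member probes on the 5 harvest arrays and the self-self array (x axis, time not to scale), with 1 point per probe and array. The DNAJB9 probes are at 0.175% and 0.233% at 0 min, while SEL1L moves to 1.93% at 30 min and HSP90B1 to 2.17% at 8 h.

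The change over time after the transcription block was examined as a slope on log2(1 + min / 10), and as the difference between the 8 h and 0 min arrays. The 8 h minus 0 min difference in log2 ratio was -1.80 for SEL1L, -1.58 for PDIA4, -1.43 for HSP90B1, and -1.20 and -1.30 for the DNAJB9 probes. Over all probes its median was 0.038 with a robust SD of 0.59, and between 0.817% and 3.09% of probes had a lower one than the members. The 8 h array had a wider spread than the 0 min array (robust SD 0.87 against 0.44), and the difference was not scaled for this. All 5 slopes were negative, from -0.30 (SE 0.069) for SEL1L to -0.16 (SE 0.090) for DNAJB9 probe 1. With arrays scaled to equal spread they were -0.0036 and -0.019 for the DNAJB9 probes, -0.082 for PDIA4, -0.14 for HSP90B1 and -0.23 for SEL1L. On the arrays as deposited, none passed in limma, with adjusted p = 0.131 for SEL1L and from 0.421 to 0.595 for the others. Of all 13151 probes 0 passed (0%), with 1870 at an unadjusted p under 0.05, SEL1L alone among the 5. Without the 1 h array 574 probes passed, and SEL1L was among them (slope -0.30, limma adjusted p = 0.0476). Without the 8 h array the slopes of the DNAJB9 probes turned positive, at 0.069 and 0.23, that of HSP90B1 was -0.027, and none passed. Without the 0 min array, whose label conflicts with itself, the slope of PDIA4 was -0.010 and that of SEL1L -0.24, and none passed.

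Ordered by their means, the genes ran PDIA4, DNAJB9, SEL1L, HSP90B1 from the most negative. PDIA4 and DNAJB9 differed by -0.042 ± 0.49 (SD over 5 arrays), with PDIA4 lower on 3 of 5 arrays, so their order is within the spread (exact p = 0.875). DNAJB9 minus SEL1L was -0.54 ± 0.69, with DNAJB9 lower on 3 of 5 arrays and not at 30 min or 1 h (exact sign-flip permutation test, two-sided p = 0.25). SEL1L minus HSP90B1 was -0.45 ± 0.49, with SEL1L lower on 4 of 5 arrays (exact p = 0.125). PDIA4 minus HSP90B1 was -1.03 ± 0.37, with PDIA4 lower on 5 of 5 arrays, which gives the smallest p that the exact test over 5 arrays allows. That p is above 0.05, so no such difference can pass.

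For each member the genes with the most similar profile were taken as those with the smallest root mean square difference in log2 ratio over the 6 arrays, among 8722 other genes. For PDIA4 they were SPCS3, a signal peptidase subunit, at 0.11, OSTC, a subunit of oligosaccharyltransferase, at 0.12, and GLT8D1, a glycosyltransferase-domain protein, at 0.12. For SEL1L they were the vesicle fusion protein YKT6 at 0.20, the cargo receptor LMAN1 at 0.22 and the ferric reductase CYBRD1 at 0.22. LMAN1 had ratios of -0.049, -0.69, -1.50, -1.29 and -2.02 over the harvests. Its likeness to SEL1L follows from the selection on these same arrays. For HSP90B1 they were PRKAR2A, a regulatory subunit of protein kinase A, at 0.17 and the transcription factors TBX19 and PLAGL1, each at 0.18. DNAJB9 had no neighbour as close, the nearest being the thioesterase LYPLA1 at 0.27, followed by ENDOD1 at 0.31 and the connexin GJA5 at 0.32. DNAJB9 and PDIA4 differed by 0.41 from each other, and HSP90B1 and PDIA4, the least similar of the members, by 0.99.

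Other genes of the pathway were counted from 6 lists, on genes with probes averaged. Of 124 listed genes other than the members, 83 were tested, and 50 had a negative and 16 a positive mean that passed limma at an adjusted p of 0.05. Over all 8749 genes 25.3% were called negative and 36.9% positive, and all 4 measured members were called negative. The median was -0.52 for the 83 genes and 0.14 for all genes, and the median of all genes moved to 0.041 with each array centred on its median. With that centring 53 and 13 of the 83 were called, and calls over all genes were 50.4% positive in place of 59.4%. With self-self in the fit 0 of the 83 passed on either side.

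Folding chaperones of the HSP70 and J-domain kind, listed with the factors MANF and SDF2, had 8 negative and 2 positive calls among 11 tested. Their median was -0.61. The positive calls were DNAJB12 at 0.68 (SE 0.12) and DNAJB14 at 0.48 (SE 0.12). The most negative were DNAJC10, a J-domain disulfide reductase, at -1.28 (SE 0.15), the stress-induced factor MANF at -1.26 (SE 0.16), the BiP cofactor DNAJB11 at -1.21 (SE 0.15) and the HSP70 relative HSPA13 at -1.08 (SE 0.12). HYOU1, the large HSP70 that exchanges nucleotide on BiP, was at -0.33 (SE 0.12), a smaller mean that passed (limma adjusted p = 0.0408). DNAJC3, an inhibitor of PERK, was at 0.18 and did not pass, and its 0.72 on self-self was larger than any of its harvest ratios.

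Disulfide isomerases and oxidases had 7 negative and 2 positive calls among 11 tested, with a median of -0.48. Beside PDIA4, the isomerase PDIA5 was at -1.13 (SE 0.15), the membrane thioredoxin TMX1 at -1.07 (SE 0.15) and the peroxiredoxin PRDX4 at -1.01 (SE 0.17). PDIA3, the isomerase that serves glycoproteins, was at -0.86 (SE 0.14) and its 9 probes ran from -1.36 to -0.62, all negative and past the threshold. PDIA6 was at -0.48 over 2 probes, of which 1 passed on its own. On the other side PDIA2 was at 1.32 (SE 0.22), although at -0.012 at 8 h. P4HB, the founding isomerase of the family, was at 0.35 (limma adjusted p = 0.0402), a call that was lost with arrays centred on their median.

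Genes of glycoprotein folding and trimming had 8 negative and 0 positive calls among 11 tested, with a median of -0.82. Glucosidase I (MOGS) was at -1.28 (SE 0.16), the mannosidase EDEM3 at -1.13 (SE 0.11), the alpha subunit of glucosidase II (GANAB) at -1.05 (SE 0.15) and the folding sensor UGGT2 at -0.98 (SE 0.14). The lectin chaperone CANX was at -0.82 (SE 0.12), negative on all 5 harvests. Its soluble relative CALR was at -0.77 (SE 0.22), positive at 0 min with 0.62 and between -1.25 and -0.97 at the 4 later harvests. The call of CALR was lost with arrays scaled to equal spread.

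Prolyl isomerases and other folding factors, many of them collagen-modifying enzymes, had 12 negative calls and 1 positive call among 14 tested, with a median of -0.96. The prolyl hydroxylase subunit P4HA2 was at -1.72 (SE 0.20), close to the mean of DNAJB9, and the lysyl hydroxylase PLOD2 at -1.47 (SE 0.23). The cyclophilin PPIC was at -1.27 (SE 0.18) and CRTAP, a partner of prolyl hydroxylation, at -1.13 (SE 0.16). Among the negative calls, SERPINH1 at -0.31 (limma adjusted p = 0.0472) averaged 2 probes that passed on opposite sides, at -1.09 and 0.46. The positive call, PLOD3 at 0.30 (limma adjusted p = 0.0471), was lost with arrays centred on their median.

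Genes of degradation from the reticulum were divided, with 10 negative and 4 positive calls among 21 tested and a median of -0.42. DERL1, a membrane protein of the channel that exports misfolded proteins, was at -2.04 (SE 0.18), more negative than SEL1L. Its ratios were -1.23, -2.48, -2.39, -1.79 and -2.29 over the harvests, large from the first one, where SEL1L was at -0.38. ERLIN1 was at -1.22 (SE 0.16), SELENOS at -1.18 (SE 0.15) and DERL2 at -0.65 (SE 0.12). HERPUD1, a partner of the SEL1L ligase, was at 0.093 (limma adjusted p = 0.536), with a sign that turned when arrays were centred. UBXN4, which recruits the unfoldase VCP, was at 1.14 (SE 0.18) on the positive side. ERLEC1 also passed on that side, at 1.03 (SE 0.13). Its ratios were 0.72, 1.00, 1.32, 0.70 and 1.44 over the harvests. SYVN1, the ligase itself, and the lectin OS9 are not analysed here.

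Sensors and regulators of the unfolded protein response had 5 negative and 7 positive calls among 15 tested, with a median of 0.22. PERK (EIF2AK3) was at 0.62 (SE 0.10) and ATF6 at 0.62 (SE 0.11), each between 0.44 and 0.77 on all 5 harvests, and both passed. On self-self they were at 0.25 and 0.026. Downstream of PERK, the transcription factor ATF4 was at 1.25 (SE 0.14) and its target DDIT3 (CHOP) at 3.38 (SE 0.36), with DDIT3 ratios of 3.22, 3.33, 3.96, 1.57 and 4.82 over the harvests. On the negative side were TMBIM6, a restraint on cell death in the reticulum membrane, at -2.72 (SE 0.23), and the protease MBTPS1, which cuts ATF6, at -1.17 (SE 0.16). EIF2AK3, ATF6, ATF4 and DDIT3 thus stood on the side opposite to the 4 measured members, in the same fit. ERN1 and XBP1 are not analysed here.

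**Figure D3:**
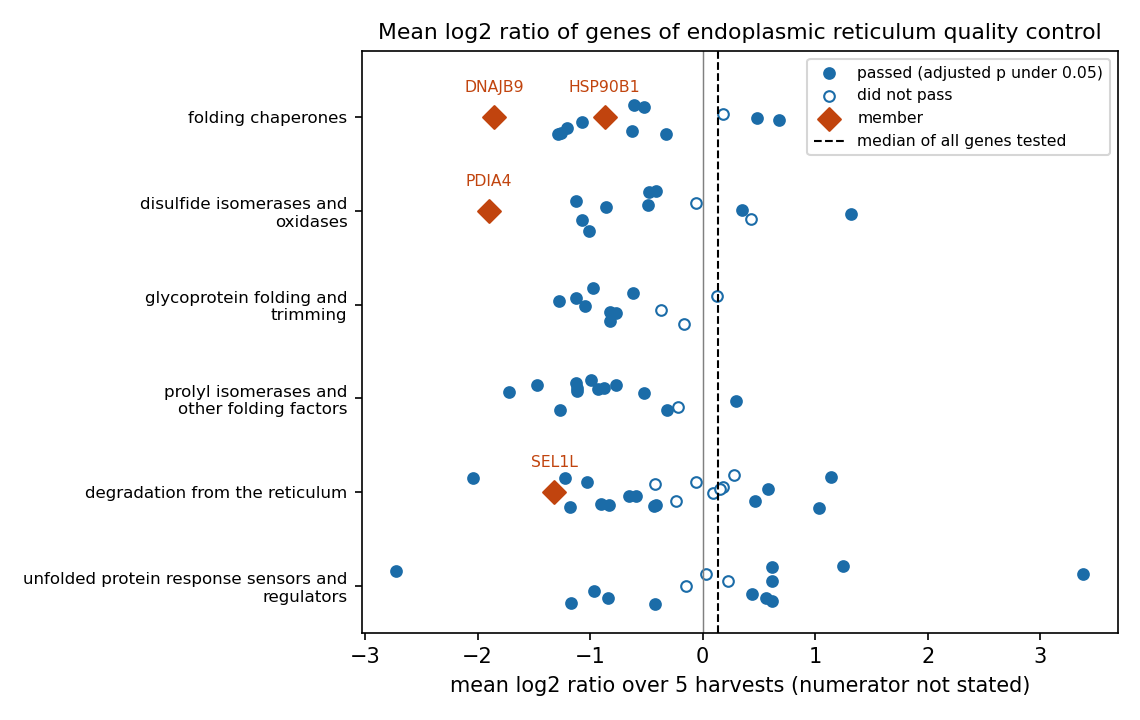
Mean log2 ratio over the 5 harvests (x axis, numerator not stated) of each tested gene in 6 lists of endoplasmic reticulum quality control (rows), with 1 point per gene, shifted vertically for legibility. Filled blue points passed an adjusted p of 0.05, open ones did not, orange diamonds are the 4 members, and the dashed line is the median of all genes at 0.14. Points of 5 lists lie mostly left of it, while those of sensors and regulators lie on both sides.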

How the data were processed

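The deposited table holds 1 log2 ratio per probe and array for 14080 probes. Per the labels, the authors averaged spot intensities after background subtraction, divided sample by reference, normalised within slides on housekeeping genes and discarded ratios of quality below 0.5. The labels do not say which culture was the sample and which the reference. The log base was read from the values: for 99.5% to 100% of them per array, 2 to that power was within 0.05 of a multiple of 1 in 10000. Each array repeats 1 value at 333 to 534 probes, and these entries, none of them a member's, were treated as not measured.

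Symbols came from the platform annotation, updated by gene ID (11282 of 11304 single-gene probes matched). The 5 harvests were modelled with limma 3.58.1 (R 4.3.3) as a level plus a time slope, with time as log2(1 + min / 10) about its average, for 13151 probes and again for 8749 genes, with Benjamini-Hochberg adjustment over all of them, two-sided. Array count limits precision. Members, lists and tests were chosen with earlier results of these data known. Named genes were all members, up to 4 per list with the largest mean in size, preset partners of the members, and the 3 nearest profiles per member. ERLEC1, DNAJB12, DNAJB14, SERPINH1 and PLOD3 were named in addition. Scaling, centring, time terms, moderation and left-out arrays were varied.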

Additional observations from a re-analysis of the deposited data

How the results depend on the processing

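All 5 member probes stayed negative under all 12 alternatives and passed under 11, with limma adjusted p up to 0.0255. The exception was the fit with the self-self array as the level to compare with, where 2 probes in all, 0 member probes, 0 member genes and 0 genes of the lists on either side passed. That fit leaves the self-self level resting on 1 array. Leaving out 1 array at a time moved the gene means to between -2.16 and -1.73 for PDIA4, -2.01 and -1.63 for DNAJB9, -1.55 and -1.10 for SEL1L, and -1.02 and -0.67 for HSP90B1. Slopes depended more on the setting. Probes passing for the slope numbered 1 with centred arrays, 27 with arrays scaled to equal spread, 438 with time in minutes and 978 with trend and robust moderation, against 0 as reported, and the cause was not tested. With 1 array left out they ranged from 0 to 574, and member probes among them from 0 to 1. With 1 array left out the slopes of the DNAJB9 probes ran from -0.21 to 0.069 and from -0.24 to 0.23, positive without the 8 h array. Member ratios outside the self-self range numbered 10 of 25 with arrays scaled to equal spread, which widens the self-self range itself. The difference PDIA4 minus DNAJB9 turned to 0.023 with scaled arrays and ranged from -0.21 to 0.077 with 1 array left out, above 0 without the 10 min, the 30 min or the 1 h array. Arrays could not be paired with each other because the labels give no replicate numbers by which to match them. Pairing was within arrays only, as 2 channels and as differences between genes.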
